A study of Mus musculus with 9 samples.

Results

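The genes described here are 10 genes of the integrated stress response and the unfolded protein response, taken by symbol from a table of 52264 gene rows: Atf4, Atf3, Ddit3, Trib3, Chac1, Asns, Sesn2, Ppp1r15a, Hspa5 and Xbp1. All 10 symbols were found once each, and all 10 passed the low-count filter that left 15366 genes for testing. They were measured by RNA sequencing in mouse embryonic stem cells labelled β-catenin-/-, in 9 libraries of 3 groups with 3 libraries each. The groups were an untreated control, CHIR (CHIR-99021), which inhibits both forms of the kinase GSK3, and BRD0705, which is selective for its α form. All 3 groups share the β-catenin genotype, growth on feeder-treated dishes, expansion in 2iL (3 µM CHIR-99021, 40 ng/ml LIF and PD03, a MEK inhibitor, at 1 µM), and an overnight change to N2B27 medium before 30 min of treatment. The control cells had therefore also met CHIR during expansion. The labels give neither the doses of the 30 min treatments nor a vehicle for the control. They name no strain or clone and do not say whether the 3 libraries of a group came from separate cultures, so p-values measure the spread between these libraries, which may be technical.

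The integrated stress response starts when one of a family of kinases phosphorylates the translation factor eIF2α. Most translation then slows, while the mRNA of the transcription factor ATF4 is translated better, and ATF4 raises genes for amino acid supply and for feedback control. The unfolded protein response is set off by misfolded proteins in the endoplasmic reticulum (ER) and shares its PERK branch with the integrated stress response. Its other branches run through ATF6, which raises chaperones such as Hspa5, and through IRE1, which splices the Xbp1 mRNA. Counts per gene show neither translation nor splicing, so the values below are total mRNA levels only.

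Total counts were 17359422 to 20773337 per library. The 10 stem cell markers examined were all expressed, with Pou5f1 at 918 CPM (reads scaled to library size and composition) and Nanog at 545 CPM. Their summed level was 4785 to 4881 CPM in control, 4828 to 5027 CPM with BRD0705 and 4953 to 5149 CPM with CHIR, and at an adjusted p under 0.05, 2 of the 10 rose with CHIR against control and 2 were lower with BRD0705 than with CHIR. Of all tested genes 2.52% rose in the first of these comparisons and 2.97% were lower in the second. Fibroblast markers were expressed too: none of 12 was at 0, the lowest being Lum at 3.06 CPM and Twist1 at 3.13 CPM, and Fn1 stood at 2518 CPM. Their summed level was 5724 to 6479 CPM in control, 6555 to 7065 CPM with BRD0705 and 6410 to 7103 CPM with CHIR. Of these 12 markers, 2 rose under each inhibitor against control at an adjusted p under 0.05. That is 16.7%, while 0.69% of all tested genes rose with BRD0705 and 2.52% with CHIR. With BRD0705, 7 of the 12 lay above control without overlap, and with CHIR 1, against 9.83% and 10.9% of all tested genes. At an unadjusted p under 0.05 by edgeR the shares were 58.3% with BRD0705 and 41.7% with CHIR, against 15.9% and 20.5%. Primitive endoderm markers summed to 20.6 to 20.9 CPM in control, 21.2 to 24.9 CPM with BRD0705 and 16.8 to 18.7 CPM with CHIR, without overlap. Of the 5 tested, 2 were higher with BRD0705 than with CHIR, against 4.8% of all tested genes. Neural markers summed to 69.4 to 87.0 CPM over all libraries, with Neurog2 at 0, and 1 of 3 tested fell with CHIR, against 3.78% of all tested genes. Mesoderm markers summed to 14.4 to 16.0 CPM in control, 13.5 to 14.5 CPM with BRD0705 and 12.1 to 14.0 CPM with CHIR. Of the 2 tested, 1 lay below control without overlap with CHIR, against 14.1% of all tested genes, and 0 passed. The part of these shifts in the results below was not tested, except where a value is given for the fibroblast markers. In these bulk libraries, fewer cells of a type and less RNA per cell cannot be told apart. Libraries also differed by GC content: the rank correlation across genes between GC and each gene's departure from its mean was -0.292 to 0.193 in control, 0.0544 to 0.260 with BRD0705 and -0.116 to -0.0543 with CHIR.

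The promoter windows of the 10 genes were read from RefSeq on GRCm38.p6, from 250 bases before to 50 bases after the start site, with 1 window per gene. They are shown because ATF4 with its C/EBP partners is known to bind the C/EBP-ATF response element (CARE), searched as TGATGNAA, and because ATF6 and XBP1 are known to act through the ER stress element (ERSE), searched as CCAAT and CCACG with 9 free bases between them. The other motifs searched were the cAMP response element (CRE, TGACGTCA), the UPR element (UPRE, TGACGTGG), ERSE-II (ATTGG and CCACG with 1 free base between them) and the NF-Y box CCAAT, which is contained in every ERSE. All were searched on both strands for the exact letters only, so variant sites and sites outside the windows were not counted. Stretches of 30 bases around the matches in 5 genes follow, 5′ to 3′ in the direction of transcription, with the match in capitals.

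Asns, GRCm38.p6 chr6:7693214-7693243, minus strand, CARE: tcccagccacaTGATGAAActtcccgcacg

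Chac1, chr2:119351038-119351067, plus strand, CARE on the opposite strand: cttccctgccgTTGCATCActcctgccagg

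Atf3, chr1:191183425-191183454, minus strand, CARE on the opposite strand: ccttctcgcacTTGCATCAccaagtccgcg

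Trib3, chr2:152344028-152344057, minus strand, CARE on the opposite strand, after the start site: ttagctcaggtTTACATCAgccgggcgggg

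Hspa5, chr2:34772020-34772049, plus strand, ERSE: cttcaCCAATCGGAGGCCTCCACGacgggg

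The CARE letters stood in 4 of the 10 windows, and in 3.97% of 32817 RefSeq promoter windows of the same length. An ERSE stood in 1 of 10, against 0.119% of all windows. The windows of the 2 genes whose levels rose with CHIR, Ddit3 and Ppp1r15a, held no exact match to either. Their 250 bases before the start site follow, with the CRE in capitals. A CRE stood in 1 of the 10 windows, that of Ppp1r15a, and in 1.79% of all windows. The Ddit3 window held no exact match to the longer motifs and 1 NF-Y box, on the opposite strand. Whether that box is part of a variant of a longer motif was not tested.

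Ddit3, GRCm38.p6 chr10:127290543-127290792, plus strand: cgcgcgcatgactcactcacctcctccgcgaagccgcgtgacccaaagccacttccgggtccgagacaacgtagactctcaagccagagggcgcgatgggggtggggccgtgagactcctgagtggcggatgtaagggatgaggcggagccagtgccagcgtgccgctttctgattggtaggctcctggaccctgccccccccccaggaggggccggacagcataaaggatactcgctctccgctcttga

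Ppp1r15a, chr7:45526269-45526518, minus strand: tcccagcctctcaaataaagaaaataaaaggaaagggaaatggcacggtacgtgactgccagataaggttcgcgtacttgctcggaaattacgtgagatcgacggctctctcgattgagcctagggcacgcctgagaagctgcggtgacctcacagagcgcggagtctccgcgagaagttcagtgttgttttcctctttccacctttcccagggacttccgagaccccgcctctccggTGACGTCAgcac

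**Figure D1:**
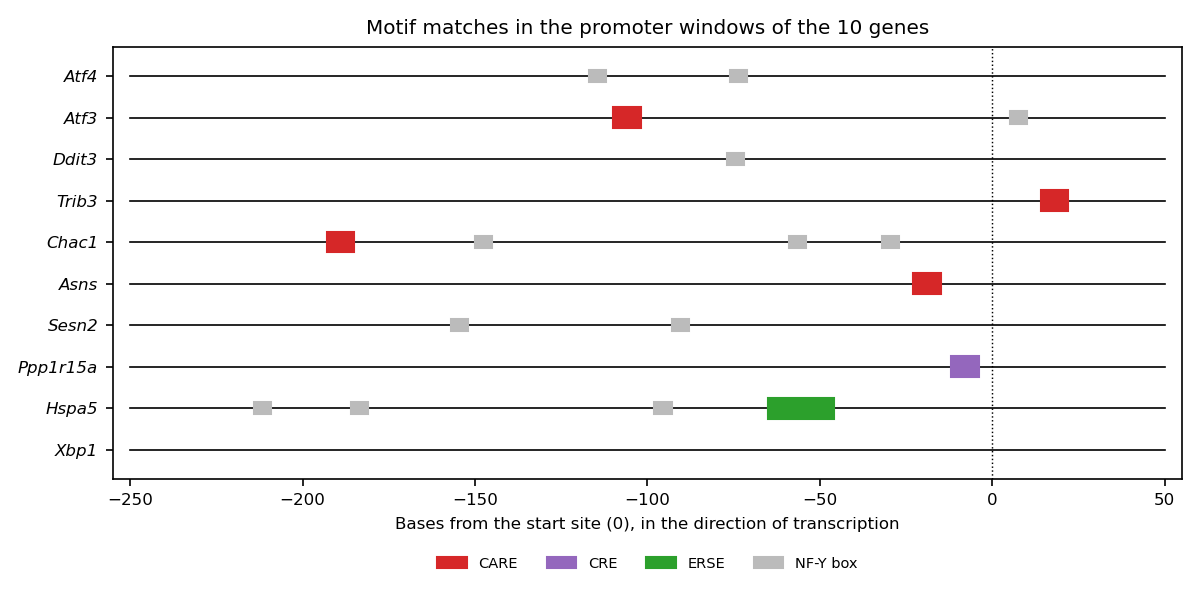
Exact motif matches in the promoter window of each of the 10 genes, from 250 bases before the start site (0 on the x axis) to 50 bases after it, with boxes drawn to scale. CARE matches (red) lie in the windows of Atf3, Trib3, Chac1 and Asns, the CRE (purple) in that of Ppp1r15a and the ERSE (green, which covers 1 NF-Y box) in that of Hspa5, while the windows of Ddit3, Atf4 and Sesn2 hold only NF-Y boxes (grey) and that of Xbp1 holds none of the motifs.

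Levels of the 10 genes were first compared with each other, per kilobase of the canonical transcript. In control, Atf4 was highest at 174 ± 6.93 CPM per kb (SD, n = 3), followed by the ER chaperone gene Hspa5 at 93.5 ± 4.19. Asns, Sesn2 and Xbp1 followed at 72.3 ± 1.68, 67.8 ± 3.94 and 60.1 ± 2.77 CPM per kb, and the mean ± SD ranges of Asns and Sesn2 overlapped. Ppp1r15a stood at 24.9 ± 0.540, Trib3 at 11.4 ± 1.02, Chac1 at 10.6 ± 1.25 and Ddit3 at 7.06 ± 0.194 CPM per kb, and those of Trib3 and Chac1 overlapped. Atf3 was lowest at 0.608 ± 0.107 CPM per kb, from 18 to 30 reads per library over all 9 libraries. The order of Ddit3 and Chac1 turned with CHIR, where Ddit3 stood at 11.3 ± 0.430 and Chac1 at 9.08 ± 1.06 CPM per kb (SD, n = 3 each). With BRD0705 Ddit3 was again below Chac1, at 7.30 ± 0.954 against 10.1 ± 1.08 CPM per kb (SD, n = 3 each). Sesn2 lay above Asns in both inhibitor groups. With CHIR they stood at 75.6 ± 2.42 and 71.9 ± 3.43 CPM per kb, and these ranges overlapped. With BRD0705 they stood at 73.5 ± 4.31 and 65.2 ± 1.30 CPM per kb, without overlap of the ranges (SD, n = 3 each). On the CPM scale over all 9 libraries, mean expression placed Hspa5 at percentile 98.0 of the tested genes, Atf4 at 96.3, Ddit3 at 38.6 and Atf3 at 14.1.

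The comparison of CHIR with control asks which of the 10 transcripts responded within 30 min when both GSK3 forms were inhibited. Ddit3 and Ppp1r15a rose, and the other 8 genes did not pass the test. Both genes encode proteins that act late in the ATF4 pathway: Ddit3 encodes CHOP, a transcription factor linked to stress-induced cell death, and Ppp1r15a encodes GADD34, which directs protein phosphatase 1 to dephosphorylate eIF2α. The 2 of 10 genes called at an adjusted p under 0.05 are to be read against 6.3% of all tested genes, and the 2 called higher against 2.52%. In 3 of the 10 every CHIR library was above every control, against 10.9% of tested genes. At an unadjusted p under 0.05 by edgeR the share of the 10 was 40%, against 20.5% of all tested genes.

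Ddit3 lies on GRCm38.p6 chromosome 10 from 127290793 to 127296291, on the plus strand. Its level was 6.75, 7.12 and 6.85 CPM in control replicates 1 to 3, and 10.7, 11.5 and 11.0 CPM in the CHIR replicates. With BRD0705 it was 6.21, 7.17 and 8.07 CPM. Every CHIR library lay above every control and BRD0705 library, and the BRD0705 libraries straddled the controls. The rise with CHIR was 60.1%, with a 95% confidence interval of 35.9 to 88.7%, or a log2 fold change of 0.68 ± 0.11 (SE), with an adjusted p of 0.00140 in edgeR's quasi-likelihood test, and rank 112 of the tested genes by p. Ddit3 passed in all 9 fits that left out 1 library, with log2 fold changes of 0.66 to 0.72. With the fibroblast marker level as a covariate the change was 0.69 on the log2 scale (edgeR adjusted p 0.0373).

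Other genes overlap Ddit3, and use of strand in the counting is not stated, so its reads could be shared. Mars1, a methionyl-tRNA synthetase gene, shares 74 exon bases with it on the opposite strand and stood at 211 ± 7.11 CPM with CHIR against 212 ± 7.24 CPM in control (SD, n = 3 each). Mars1 differed by a log2 value of -0.0040 ± 0.0582 (SE), with an edgeR adjusted p of 0.981. The antisense gene Gm4189 was at 0 CPM in control and BRD0705 and at 0.0166 ± 0.0288 CPM with CHIR (SD, n = 3). GENCODE vM39 also lists more than 1 gene with the symbol Ddit3, and the count table has a single row for it.

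Ppp1r15a lies on chromosome 7 from 45522917 to 45526268, on the minus strand. It was at 58.2, 56.9 and 59.4 CPM in control replicates 1 to 3, at 74.5, 72.9 and 76.7 CPM in the CHIR replicates and at 63.7, 56.7 and 60.4 CPM in the BRD0705 replicates. The CHIR libraries again lay above all 6 others, while BRD0705 replicate 2 lay below the lowest control and replicates 1 and 3 above the highest. The rise with CHIR was 28.4%, with a 95% confidence interval of 18.0 to 39.8%, or a log2 fold change of 0.36 ± 0.06 (SE), with an edgeR adjusted p of 0.00113, and rank 100 by p. It passed in all 9 fits that left out 1 library, with log2 fold changes of 0.35 to 0.38, and with the fibroblast marker covariate (0.37, edgeR adjusted p 0.0310). No exon of the canonical transcript of another annotated gene overlaps its own canonical transcript, and exons of other transcripts were not searched. Its partner Ppp1r15b, the constitutive subunit for the same phosphatase reaction, did not pass against control with either inhibitor.

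Atf4, the factor upstream of both genes, did not pass the test with CHIR. It was at 289, 311 and 307 CPM in control replicates 1 to 3 and at 310, 309 and 342 CPM in the CHIR replicates, with overlapping groups. The difference was 5.86%, with a 95% confidence interval of -3.10 to 15.7% (edgeR adjusted p 0.499). Atf3, a transcription factor gene induced by many stresses, was at 1.08, 1.45 and 1.08 CPM in control and 1.495, 1.32 and 1.59 CPM with CHIR. At this depth its interval was wide, from -16.4 to 76.4% (edgeR adjusted p 0.602), so a rise as large as that of Ddit3 lay inside it.

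The known ATF4 targets Trib3, Chac1, Asns and Sesn2 did not pass the test with CHIR. Trib3 encodes a pseudokinase that restrains ATF4 and AKT, and was at 22.2, 23.2 and 26.3 CPM in control and 26.8, 24.6 and 24.8 CPM with CHIR. Its groups overlapped, and the difference was 6.42%, with an interval of -5.97 to 20.4% (edgeR adjusted p 0.616). Chac1, which encodes an enzyme that degrades glutathione, was at 15.7, 17.5 and 19.9 CPM in control and 14.6, 13.7 and 17.1 CPM with CHIR. The groups overlapped through CHIR replicate 3, and the difference was -14.7%, with an interval of -26.9 to -0.481% (edgeR p 0.0439, adjusted p 0.227). Asns, the asparagine synthetase gene, was at 353, 363 and 347 CPM in control and 343, 342 and 372 CPM with CHIR. The CHIR values lay on both sides of the controls, and the difference was -0.573%, with an interval of -7.63 to 7.02% (edgeR adjusted p 0.954). Whether these differences differed from those of Ddit3 and Ppp1r15a was not tested.

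Sesn2 encodes a leucine sensor that restrains mTORC1. It was at 252, 225 and 232 CPM in control and at 257, 260 and 273 CPM with CHIR, with no overlap between the groups. Among tested genes 25.1% had no overlap in either direction. The difference was 11.4%, with an interval of 2.49 to 21.1%, and missed the threshold (edgeR p 0.0141, adjusted p 0.120). It passed after a correction for GC content and transcript length in each library (0.19 on the log2 scale, edgeR adjusted p 0.0196). The Sesn2 transcript has the highest GC content of the 10, at 58.7%, and Hspa5 the lowest, at 44.4%.

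The genes of the ER branches did not pass either. Hspa5, which encodes the chaperone BiP, was at 477, 439 and 473 CPM in control and 490, 476 and 494 CPM with CHIR, and the groups overlapped by a narrow margin. The difference was 5.00%, with an interval of -3.30 to 14.0% (edgeR adjusted p 0.540). Rabepk shares 1313 exon bases with Hspa5 on the opposite strand and stood at 15.5 ± 1.33 CPM with CHIR (SD, n = 3). Xbp1, the transcription factor gene whose mRNA is spliced by IRE1, was at 125, 115 and 116 CPM in control and 112, 116 and 129 CPM with CHIR. The difference was 0.443%, with an interval of -8.01 to 9.67% (edgeR adjusted p 0.972).

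**Figure D2:**
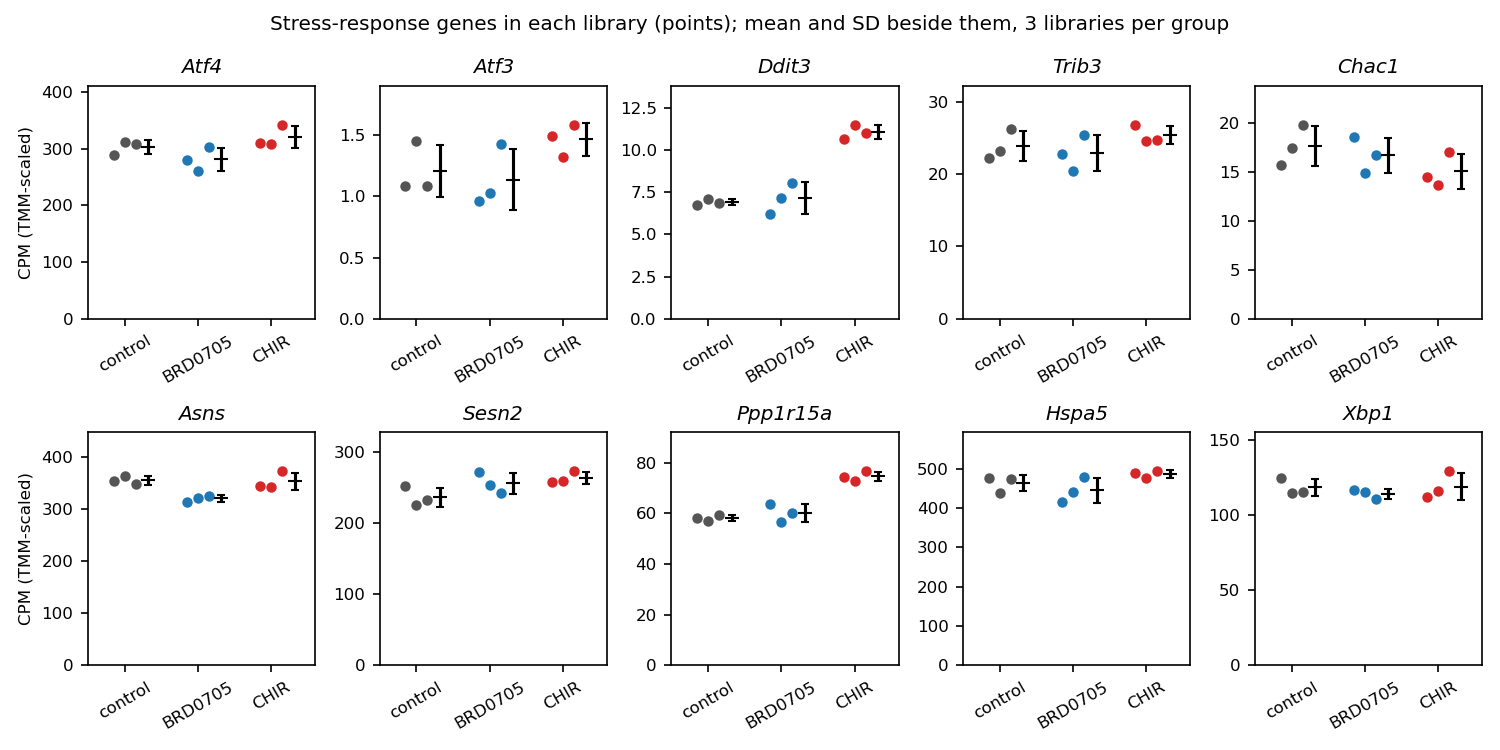
CPM of each of the 10 genes in the 3 control (grey), 3 BRD0705 (blue) and 3 CHIR (red) libraries, on y axes that start at 0; each point is a library, ordered by replicate number, and the black mark and bar beside them are the mean and SD. Only for Ddit3 and Ppp1r15a do the CHIR points lie well clear of both other groups, at 10.7 to 11.5 and 72.9 to 76.7 CPM.

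BRD0705 was compared with control to ask the same of inhibiting GSK3α. None of the 10 genes passed an adjusted p of 0.05 in edgeR's quasi-likelihood test, against 1.22% of all tested genes (0.69% higher and 0.534% lower). Without adjustment, 1 gene (10%) had an edgeR p under 0.05, against 15.9% of all tested genes. DESeq2 and limma voom also called 0 of the 10, but DESeq2 gave no adjusted p for Atf3 or Ddit3. The median edgeR log2 fold change of the 10 genes was -0.06, against -0.0038 over all tested genes, with a range of -0.15 to 0.12.

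Asns was the gene with the unadjusted p under 0.05. It was at 313, 321 and 325 CPM in the BRD0705 replicates, all below the lowest control at 347 CPM. It was the 1 gene of the 10 without overlap, against 20.2% of tested genes (9.83% higher and 10.4% lower). The difference was -9.82%, with a 95% confidence interval of -16.2 to -2.92% (edgeR p 0.00862, adjusted p 0.153). Atf4 was at 281, 260 and 302 CPM with BRD0705, with replicate 3 inside the control range, a difference of -7.11% with an interval of -14.99 to 1.499% (edgeR adjusted p 0.421). Sesn2 was at 272, 254 and 242 CPM, overlapping control replicate 1, a difference of 8.33% with an interval of -0.352 to 17.8% (edgeR adjusted p 0.338).

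For the genes that rose with CHIR, the upper ends of the intervals under BRD0705 lay below those rises. Ddit3 differed from control by 3.74%, with an interval of -12.6 to 23.2% (edgeR adjusted p 0.881), and Ppp1r15a by 3.63%, with an interval of -4.88 to 12.9% (edgeR adjusted p 0.738). Trib3 was at 22.8, 20.5 and 25.4 CPM, Chac1 at 18.6, 14.96 and 16.7 CPM and Atf3 at 0.963, 1.02 and 1.42 CPM, all overlapping control. Hspa5 was at 416, 441 and 479 CPM with BRD0705 and Xbp1 at 117, 115 and 111 CPM. Both overlapped control, with differences of -3.84% and -3.57%.

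The inhibitors were then compared directly. Ddit3 and Ppp1r15a were lower with BRD0705 than with CHIR, and no gene of the 10 passed in the other direction. The 2 of 10 genes called lower are to be read against 2.97% of all tested genes, with 4.8% called higher and 7.77% in either direction. In 4 of the 10 the groups did not overlap, all lower with BRD0705, against 26.7% of tested genes (12.9% lower). At an unadjusted p under 0.05 by edgeR the share of the 10 was 50%, against 22.5% of all tested genes. The 2 treatments lasted equally long, but as their doses are not given these are differences between the treatments as applied. Ddit3 was lower by 35.2%, with a 95% confidence interval of -45.0 to -23.6%, or a log2 fold change of -0.63 ± 0.11 (SE) with an edgeR adjusted p of 0.00234. Ppp1r15a was lower by 19.3%, with an interval of -25.9 to -12.2%, or a log2 fold change of -0.31 ± 0.06 (SE) with an edgeR adjusted p of 0.00324. Both passed in all 9 fits that left out 1 library. The fibroblast marker sums of the 2 inhibitor groups overlapped, and with that covariate the changes were -0.62 and -0.31 on the log2 scale (edgeR adjusted p 0.00441 and 0.00593).

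Atf4 was also lower with BRD0705 in each library, at 260 to 302 CPM against 309 to 342 CPM, a difference of -12.2% with an interval of -19.7 to -4.11%. It missed the threshold (edgeR adjusted p 0.0668), passed in 5 of 13 alternative analyses and passed without BRD0705 replicate 3 (edgeR adjusted p 0.0288). Asns was lower by 9.30%, with an interval of -15.8 to -2.35%, its groups did not overlap, and it too missed the threshold (edgeR adjusted p 0.101). It passed once the GC and length trends were removed (-0.18 on the log2 scale, edgeR adjusted p 0.0299). For Sesn2 the difference was -2.77%, with an interval of -10.6 to 5.70%, and for Xbp1 it was -4.00%, with an interval of -12.1 to 4.85%. For Trib3 and Chac1 the intervals were -20.2 to 2.42% and -4.96 to 30.0%, and for Hspa5 -15.7 to -0.551% (edgeR adjusted p 0.190). Atf3 had the widest, from -46.6 to 14.4%.

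**Figure D3:**
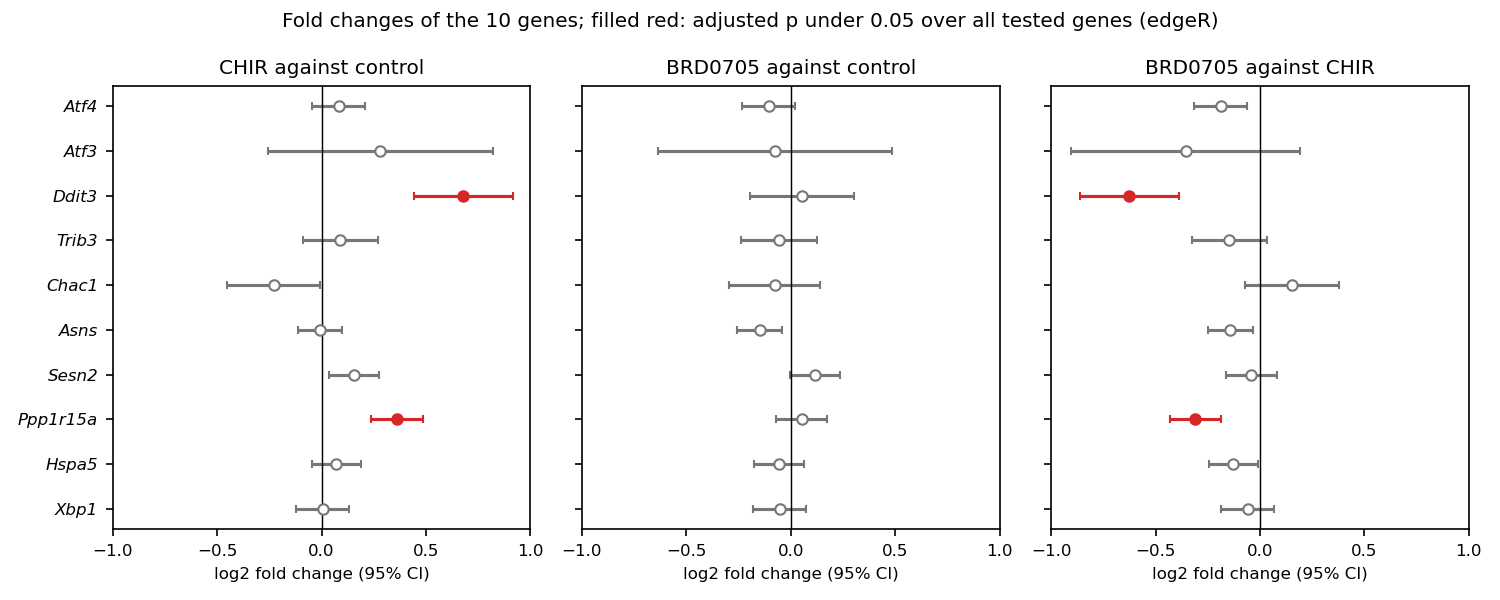
Log2 fold changes of the 10 genes (points) with their 95% confidence intervals (bars) in the 3 comparisons; filled red points passed an adjusted p of 0.05 over all tested genes. With CHIR, Ddit3 at 0.68 and Ppp1r15a at 0.36 passed, none passed with BRD0705 against control, and the same 2 genes were lower with BRD0705 than with CHIR; both comparisons with control use the same control libraries.

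The rest of the pathway was described from 8 lists of 128 other genes, of which 127 were tested. With CHIR 9 of them passed, 5 higher and 4 lower, or 7.09% against 6.3% of all tested genes. With BRD0705 2 passed, both lower, or 1.57% against 1.22%. Between the inhibitors 12 passed, or 9.45% against 7.77%. Over the 127 genes together these shares lie near those of all genes, while single lists lay above or below them. The lists were chosen with earlier results of these data known. Median log2 fold changes of the 127 genes were 0.02 with CHIR and -0.03 with BRD0705, against -0.0091 and -0.0038 over all tested genes. Without single libraries the counts were 4 to 10 with CHIR (4 without CHIR replicate 2, and 5 without CHIR replicate 3, control replicate 1 or control replicate 2). They were 0 to 5 with BRD0705 (0 without control replicate 3 or BRD0705 replicate 1, 1 without control replicate 2 or BRD0705 replicate 2, 3 without CHIR replicate 3, 4 without BRD0705 replicate 3 and 5 without control replicate 1). In these fits the share of all tested genes moved too, from 3.28 to 6.86% with CHIR and from 0.13 to 1.96% with BRD0705. With the correction for GC and length 21 passed with CHIR, or 16.5%, and the share of all tested genes rose too, from 6.3% to 10.01%. With the fibroblast marker covariate the edgeR counts with CHIR and BRD0705 were both 0, and calls over all tested genes fell to 1.23% and 0. The summed level of these markers did not overlap between control and BRD0705 (5724 to 6479 against 6555 to 7065 CPM). The covariate thus varied with treatment, and the part of each in the lost calls cannot be told apart. Fold changes did not shrink alike: on the log2 scale Tnfrsf10b was at 0.41, Stc2 at -0.38, Nfe2l2 at 0.27, Nupr1 at 0.34 and Vegfa at 0.29 with CHIR and the covariate, and Eif2s1 at -0.37 and Ppib at -0.21 with BRD0705. Without the covariate, 26.8% of the 127 genes with CHIR and 18.9% with BRD0705 had an unadjusted p under 0.05, against 20.5% and 15.9% of all tested genes.

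The list of other ATF4 and CHOP targets held 5 of the 9 genes that passed with CHIR, of 15 tested, with 3 higher and 2 lower. That is 33.3% of the list, against 6.3% of all tested genes. At an unadjusted p under 0.05 by edgeR the share was 53.3% with CHIR and 20% with BRD0705, against 20.5% and 15.9%. Tnfrsf10b, which encodes a death receptor that CHOP is known to induce, was at 18.4 ± 0.372 CPM in control and rose to 24.4 ± 0.406 CPM (SD, n = 3 each), a log2 change of 0.41 ± 0.08 (SE) with an edgeR adjusted p of 0.00565. Vegfa, an angiogenic growth factor, rose to 81.5 ± 7.50 CPM from 63.6 ± 3.78 CPM (SD, n = 3 each), a log2 change of 0.36 ± 0.07 (SE) with an edgeR adjusted p of 0.00381. Both passed in all 9 fits that left out 1 library. Nupr1, which encodes a stress-induced chromatin protein, rose to 49.0 ± 4.87 CPM from 39.5 ± 3.23 CPM (SD, n = 3 each; edgeR adjusted p 0.0187). It lost the threshold without control replicate 2, CHIR replicate 2 or CHIR replicate 3 (edgeR adjusted p 0.0915, 0.0883 and 0.0776). Stc2, a secreted glycoprotein gene, fell to 21.4 ± 2.19 CPM from 28.0 ± 0.968 CPM (SD, n = 3 each), a log2 change of -0.39 ± 0.08 (SE) with an edgeR adjusted p of 0.00565, and passed in all 9 such fits. Klhl24 fell from 42.4 ± 1.64 to 36.2 ± 1.52 CPM (SD, n = 3 each; edgeR adjusted p 0.0274), with an adjusted p of 0.0871 to 0.122 by edgeR without control replicates 1 or 2 or CHIR replicates 2 or 3. Members of 1 list thus moved both ways. With BRD0705, Vegfa was at 72.7 ± 1.51 CPM, above control without overlap, and Klhl24 at 37.2 ± 0.253 CPM, below it without overlap (SD, n = 3 each). Of all tested genes 9.83% lay above and 10.4% below control in this way. Neither gene passed (edgeR adjusted p 0.166 and 0.122), nor did either pass between inhibitors. Tnfrsf10b, Nupr1 and Stc2 overlapped control with BRD0705.

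Among the 16 genes for eIF2 kinases, eIF2 and eIF2B, 1 rose and 1 fell with CHIR. That is 12.5% of the list, against 6.3% of all tested genes. With BRD0705 the share was 6.25%, against 1.22%. At an unadjusted p under 0.05 by edgeR it was 50% with CHIR and 31.2% with BRD0705, against 20.5% and 15.9%. Impact, which encodes an inhibitor of the activation of the kinase GCN2, rose from 34.2 ± 2.12 to 40.9 ± 1.05 CPM (SD, n = 3 each; edgeR adjusted p 0.0262). Eif2ak2, the gene of the double-stranded RNA sensor kinase PKR, fell from 22.5 ± 1.36 to 18.5 ± 1.11 CPM (SD, n = 3 each; edgeR adjusted p 0.0286). Impact lost the threshold without control replicates 1 or 3 or any of the CHIR replicates (edgeR adjusted p 0.0533 to 0.0888). Eif2ak2 lost it without any of the controls or CHIR replicates 1 or 3 (edgeR adjusted p 0.0518 to 0.157). With BRD0705, Eif2s1, which encodes eIF2α itself, fell to 190 ± 0.950 CPM from 233 ± 4.38 CPM (SD, n = 3 each), a log2 change of -0.30 ± 0.05 (SE) with an edgeR adjusted p of 0.00928. Its adjusted p was 0.0666 without control replicate 3 and 0.0616 without BRD0705 replicate 1 by edgeR, and Plek2 lies opposite part of it.

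In this list 25% of genes passed between the inhibitors, against 7.77% of all tested genes, and 50% against 22.5% had an unadjusted p under 0.05 by edgeR. Eif2s1 was also lower with BRD0705 than with CHIR (edgeR adjusted p 0.0390), as were Eif2b1 and Eif2b3, subunits of the factor that recharges eIF2, and Ppp1r15b. Eif2b1 stood at 50.3 ± 2.74 against 58.6 ± 1.04 CPM, Eif2b3 at 36.4 ± 1.05 against 43.1 ± 0.714 CPM and Ppp1r15b at 104 ± 2.07 against 119 ± 6.10 CPM (SD, n = 3 each). Their edgeR adjusted p values were 0.0336, 0.0164 and 0.0470. Eif2b3 lost the threshold without BRD0705 replicate 1 or CHIR replicate 2 (edgeR adjusted p 0.0644 and 0.0676). Eif2b1 lost it without BRD0705 replicates 1 or 2 or any CHIR replicate (0.0568 to 0.136), and Eif2s1 without control replicate 3, any BRD0705 replicate or CHIR replicates 1 or 2 (0.0536 to 0.166), all by edgeR adjusted p. Ppp1r15b passed only without control replicate 1 among the fits that left out a library, with edgeR adjusted p values of 0.0515 to 0.196 in the others. Gm26616 lies opposite part of Ppp1r15b and Gtf2h3 opposite part of Eif2b1, so reads of both could be shared.

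Among 14 ATF4 partners and other CREB/ATF factors, Nfe2l2 passed with CHIR (7.14% of the list, against 6.3% of all tested genes). It encodes NRF2, the regulator of the oxidative stress response, and rose from 128 ± 9.04 to 150 ± 1.44 CPM (SD, n = 3 each; edgeR adjusted p 0.0179). Without control replicates 1 or 2 or CHIR replicate 2 the adjusted p was 0.0626, 0.0593 and 0.0590 by edgeR. With BRD0705 Nfe2l2 was at 144 ± 2.61 CPM (SD, n = 3), above control without overlap, against 9.83% of tested genes. It did not pass there (edgeR adjusted p 0.124), nor between inhibitors. The gene E030042O20Rik lies opposite part of Nfe2l2. Creb3l1 and Creb3l2, membrane-bound relatives of ATF6, were higher with BRD0705 than with CHIR, at 81.0 ± 6.16 against 65.2 ± 7.63 CPM and 22.1 ± 0.757 against 18.5 ± 0.613 CPM (SD, n = 3 each; edgeR adjusted p 0.0338 and 0.0380). Creb3l1 lost the threshold without control replicate 2, BRD0705 replicates 1 or 2 or CHIR replicates 1 or 2 (0.0502 to 0.162), and Creb3l2 without BRD0705 replicates 1 or 2 or any CHIR replicate (0.0706 to 0.121), by edgeR adjusted p. With the GC and length correction their log2 fold changes were 0.20 and 0.16, with edgeR adjusted p values of 0.131 and 0.160. That correction also ended the calls of Slc1a4 and Eif2s1 between inhibitors (edgeR adjusted p 0.0695 and 0.113) and of Klhl24 with CHIR (edgeR adjusted p 0.0531).

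None of the 23 genes of amino acid supply and one-carbon metabolism passed against control with either inhibitor in edgeR's test, with 5 (21.7%) and 4 (17.4%) at an unadjusted p under 0.05 for CHIR and BRD0705, against 20.5% and 15.9% of all tested genes. Between the inhibitors 3 passed (13%, against 7.77% of all tested genes). Psat1, an enzyme of serine synthesis, was lower with BRD0705, at 303 ± 5.95 against 355 ± 8.09 CPM, and so was Mthfd2, a mitochondrial folate enzyme, at 47.8 ± 1.42 against 57.0 ± 4.71 CPM (SD, n = 3 each; edgeR adjusted p 0.0126 and 0.0238). Slc1a4, a transporter of neutral amino acids, was higher, at 24.9 ± 0.688 against 20.1 ± 0.364 CPM (SD, n = 3 each; edgeR adjusted p 0.0163). Psat1 lost the threshold without BRD0705 replicate 1 or CHIR replicate 2 (0.0554 and 0.0693), Slc1a4 without BRD0705 replicate 1 or CHIR replicates 1 or 2 (0.0549 to 0.0790), and Mthfd2 without any BRD0705 replicate or CHIR replicates 1 or 3 (0.0505 to 0.108), by edgeR adjusted p. The 13 genes of aminoacyl-tRNA synthetases and tRNA export had 0 calls by edgeR in each of the 3 comparisons, with 0 at an unadjusted p under 0.05 for CHIR, 2 (15.4%) for BRD0705 and 3 (23.1%) between inhibitors. The last is set against 22.5% of all tested genes.

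From the list of other ATF4 and CHOP targets, 3 genes differed between the inhibitors. That is 20% of the list, against 7.77% of all tested genes. At an unadjusted p under 0.05 by edgeR the share was 46.7%, against 22.5%. Stc2 was higher with BRD0705 than with CHIR by a log2 value of 0.40 ± 0.08 (SE), with an edgeR adjusted p of 0.00418, at 28.3 ± 1.48 CPM (SD, n = 3), and passed in all 9 fits that left out 1 library. Nupr1 was lower, at 40.6 ± 0.828 CPM (SD, n = 3; edgeR adjusted p 0.0340), and lost the threshold without any BRD0705 replicate or CHIR replicates 2 or 3 (edgeR adjusted p 0.0771 to 0.133). Cdsn, which encodes a skin adhesion protein, was higher, at 7.02 ± 0.627 against 4.73 ± 0.125 CPM (SD, n = 3 each; edgeR adjusted p 0.0175). Without BRD0705 replicate 2 or CHIR replicates 1 or 2, the adjusted p of Cdsn was 0.0532 to 0.0798 by edgeR.

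The list of ER chaperones and folding enzymes had 1 call with CHIR, 1 with BRD0705 and 0 between inhibitors. These are 5.56%, 5.56% and 0 of its 18 genes, against 6.3%, 1.22% and 7.77% of all tested genes. At an unadjusted p under 0.05 by edgeR the share was 16.7% in each comparison, against 20.5%, 15.9% and 22.5%. Of 18 ER chaperones and folding enzymes, Fkbp2, a prolyl isomerase of the ER, fell with CHIR from 23.1 ± 1.75 to 17.9 ± 2.16 CPM, and Ppib, the ER cyclophilin, fell with BRD0705 from 106 ± 4.22 to 87.2 ± 3.57 CPM (SD, n = 3 each; edgeR adjusted p 0.0290 and 0.0251). Fkbp2 lost the threshold without control replicates 1 or 3 or CHIR replicate 2 (0.118, 0.0833 and 0.161), and Ppib without control replicates 2 or 3 or BRD0705 replicates 1 or 2 (0.0792 to 0.169), by edgeR adjusted p. Fkbp2 overlaps another annotated gene on its own strand and Ppib lies partly opposite Snx22, so reads of both could be shared. The 10 sensors and ATF6 processing genes, among them Ern1 and Atf6, had 0 calls by edgeR in the 3 comparisons, with 2, 3 and 1 at an unadjusted p under 0.05 for CHIR, BRD0705 and the direct comparison. The 18 genes of ER-associated degradation and XBP1 targets, among them Dnajb9 and Herpud1, also had 0 calls, with 4, 1 and 7 at an unadjusted p under 0.05. Of all tested genes, 20.5%, 15.9% and 22.5% had such a p in these comparisons, against 22.2%, 5.56% and 38.9% of the 18.

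**Figure D4:**
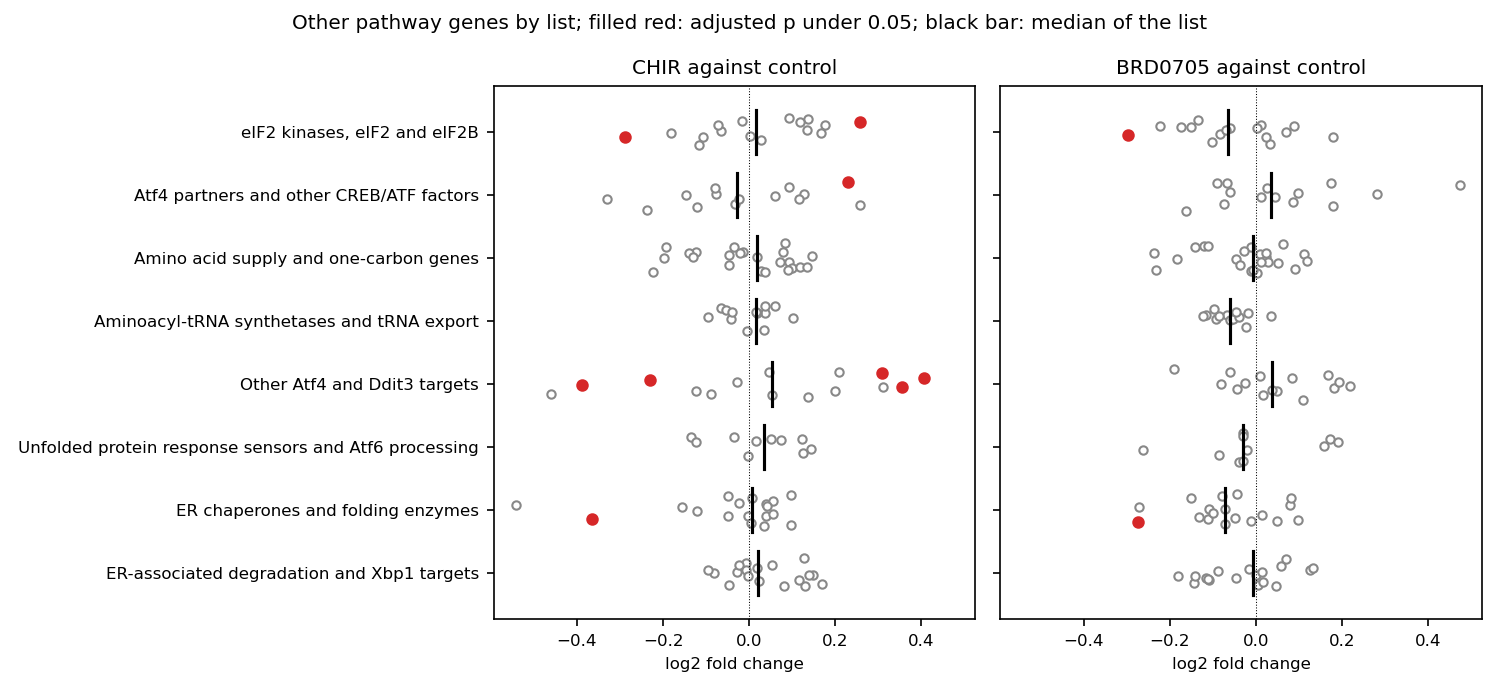
Log2 fold changes against control of the 127 tested genes of the 8 other pathway lists (open points, filled red where the adjusted p was under 0.05), with a black bar at each list's median, for CHIR on the left and BRD0705 on the right. The 9 genes that passed with CHIR lie on both sides of 0, with 5 of them among the other ATF4 and CHOP targets, and the 2 that passed with BRD0705 both lie below 0.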

How the data were processed

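The authors deposited raw counts per gene symbol as whole numbers, and a table of normalized signal that equals these counts divided by 1 factor per library. The factors matched DESeq2 size factors computed here to within 2.19e-11. RSEM, DESeq2 and the build mm10 are named in the submitters' processing notes. Not given in the sources used here are the aligner, the gene annotation and whether counting used strand. The labels name both polyA RNA and ribosomal RNA depletion, and which applies was not resolved.

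The test was edgeR 4.0.16 (R 4.3.3) on the counts: filterByExpr with a minimum count of 10, TMM scaling and the quasi-likelihood F test, 2-sided, with all 9 libraries in 1 fit of 3 group means (6 residual degrees of freedom). Genes were called at a Benjamini-Hochberg adjusted p under 0.05 over all tested genes. CPM used TMM-scaled library sizes. Each standard error is the log2 fold change over the root of F. Pairs of libraries of 1 group differed by more than sampling noise (chi-square per degree of freedom 3.39 to 8.01). The test was checked on simulated data.

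Transcript length, GC content (98.0% of tested genes) and exon overlaps came from canonical transcripts of GENCODE vM39 on GRCm39, matched by symbol, and positions and promoters from RefSeq on GRCm38.p6.

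The genes and lists were chosen with earlier results of these data known. Named were all 10 genes and every list gene called in a comparison. Alternatives were DESeq2 1.42.0, limma 3.58.1 voom, DESeq2-type factors, library size only, no filter, a filter at mean CPM 1, a fit of the compared pair of groups alone, the replicate number as a block, GC and length correction (splines with 5 degrees of freedom) without and with the block, the mean log2 CPM of the fibroblast markers as a covariate, limma on log2(deposited value + 1) and log2(deposited value + 0.1), and leaving out each library.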

Additional observations from a re-analysis of the deposited data

How the results depend on the processing

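Ddit3 and Ppp1r15a passed with CHIR against control and in BRD0705 against CHIR under each of the 13 alternatives and without each of the 9 libraries. With the replicate number as a block, 2 of the 10 genes passed with CHIR, 0 with BRD0705 and 3 between inhibitors, where Atf4 was added (edgeR adjusted p 0.0463). The block gave 11, 3 and 11 of the other pathway genes in those comparisons, and Ppp1r15b lost its call between inhibitors (edgeR adjusted p 0.0617). These are 8.66%, 2.36% and 8.66% of the pathway genes, against 6.33%, 1.445% and 7.66% of all tested genes with the block. Same-numbered libraries did not deviate together: departures from group means correlated at -0.0897 to 0.0802 over 9 pairs, so the numbers are not taken to pair the libraries. Between inhibitors, 4 of the 10 genes passed with the GC and length correction, and 4 with that correction and the replicate block. The other genes called in BRD0705 against control numbered 9 with DESeq2, 4 with limma voom, 8 with no low-count filter, 4 at a mean CPM of at least 1 and 0 with the fibroblast covariate. In CHIR against control they numbered 21 with the GC and length correction, 20 with that and the replicate block, and 0 with the covariate, and between inhibitors 20 with the correction. The shares of all tested genes moved as well: in CHIR against control they were 6.3% in the reported fit, 10.01% with the correction, 9.87% with the correction and block and 1.23% with the covariate. Between inhibitors the correction gave 9.55%, and 9.05% with the block. In BRD0705 against control they were 5.81% with DESeq2, 1.13% with voom, 2.28% with no filter, 1.82% at a mean CPM of at least 1 and 0 with the covariate. Under the covariate the log2 fold changes of genes that lost the threshold stayed of the same sign, such as 0.41 for Tnfrsf10b and -0.38 for Stc2 with CHIR and -0.37 for Eif2s1 with BRD0705. Without single libraries these counts ranged from 0 to 5, 4 to 10 and 2 to 14 in BRD0705 against control, CHIR against control and between inhibitors. Between inhibitors they were 2 without BRD0705 replicate 1 or CHIR replicate 2, 5 without BRD0705 replicate 2 or CHIR replicate 1, and 7 without CHIR replicate 3. Shares of all tested genes without single libraries ranged from 0.13 to 1.96% in BRD0705 against control. They were 3.28 to 6.86% in CHIR against control and 3.94 to 8.41% between inhibitors.

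Only genes that did not pass changed sign. Asns with CHIR was at 0.0015 on the log2 scale with DESeq2 and with DESeq2-type size factors, 0.0429 and 0.0417 with the GC and length correction without and with the replicate block, 0.0596 with the covariate and 0.0048 on both scales of the deposited values. Xbp1 with CHIR was at -0.0204 with library size only. With the covariate and BRD0705, Atf4 was at 0.0023, Atf3 at 0.16, Chac1 at 0.13 and Xbp1 at 0.0120. Without single libraries, BRD0705 log2 fold changes ranged from -0.27 to 0.0888 for Atf3, -0.0395 to 0.15 for Ddit3, -0.13 to 0.0249 for Trib3 and -0.15 to 0.0208 for Chac1, CHIR ones from -0.0413 to 0.0195 for Asns and -0.0492 to 0.0580 for Xbp1, and between inhibitors Xbp1 ranged from -0.10 to 0.00095. The causes were not tested. Depth limits Atf3 most, at 18 to 30 reads per library.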
